A study of Homo sapiens with 12 samples.

Results

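The 7 genes described here encode receptor chains for IL4, IL13, IL22 and IL6, and were taken by gene symbol from the 45416 genes of the expression table. They are *IL13RA2*, *IL13RA1*, *IL4R*, *IL2RG*, *IL22RA1*, *IL6ST* and *IL6R*. RNA was sequenced from U251 cells, a human glioblastoma cell line labelled wild type. Transfection was with a control siRNA, siNC, or with either of the *PD-L1* siRNAs siPDL1-1 and siPDL1-2. The cells were incubated for 48 h and were then left unstimulated or given IFNγ at 100 U/ml for 24 h, which gave 6 groups of 2 libraries from independent experiments. All groups were thus transfected, each siRNA is 1 sequence, and no untransfected cells were compared.

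The 12 libraries held 17101069 to 55657393 reads assigned to genes, so that 1 read stood for 0.0187 to 0.0586 normalized CPM (reads scaled to a common library size). *CD274*, the gene of PD-L1, was at 4.76 ± 0.217 CPM (mean ± SD, n = 2) in unstimulated siNC cells, 2.70 ± 0.0436 with siPDL1-1 and 3.51 ± 0.0860 with siPDL1-2. With IFNγ it was at 73.6 ± 3.43 CPM in siNC cells, 63.8 ± 4.04 with siPDL1-1 and 36.3 ± 1.76 with siPDL1-2, and the siPDL1-1 difference from siNC under IFNγ missed the threshold (log2 fold change -0.20, FDR = 0.0498). The unstimulated siPDL1-2 difference from siNC was -0.35 (FDR = 0.00183), under the fold limit used below. The word knockdown stands below for transfection with either *PD-L1* siRNA, also where the *CD274* difference was not called. By their mean over the 12 libraries, 8 of 9 glial and glioblastoma markers were above 1 CPM, and *VIM* was abundant while *OLIG2* stayed at or below 0.359 CPM in every library. By the same mean, *CD68* and *CD4* of 14 leukocyte markers, *KRT8* and *KRT18* of 7 epithelial markers and 2 of 4 endothelial markers were above 1 CPM. *PTPRC*, the pan-leukocyte marker, was at or below 0.176 CPM in every library.

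IL13 binds *IL13RA1*, which pairs with *IL4R* to form a receptor that signals through JAK kinases and STAT6, whereas *IL13RA2* binds IL13 with high affinity, has a short cytoplasmic tail and is known as a decoy and as a target antigen for CAR T cells in glioblastoma. *IL4R* can instead pair with *IL2RG*, the common gamma chain of lymphoid cells. *IL22RA1* pairs with IL10RB to bind IL22 on epithelial cells, and *IL6ST* (gp130) is the shared signalling chain of the IL6 family, to which *IL6R* brings IL6.

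Divided by the length of the canonical transcript, *IL13RA1* had the highest level of the 7 genes, with a mean over the 12 libraries of 41.2 CPM per kb. *IL13RA2* followed at 31.9 and *IL6ST* at 18.1 CPM per kb. The chains *IL4R* (2.59 CPM per kb), *IL6R* (2.48) and *IL22RA1* (1.45) were far lower, and *IL2RG* was at 0.107 CPM per kb. Several neighbours in this order overlapped: the *IL13RA1* and *IL13RA2* levels exchanged places between siRNA groups, and those of *IL4R* and *IL6R* were close and also changed order. In siNC cells with IFNγ, *IL4R* (2.28 and 2.18 CPM per kb) lay above *IL6R* (1.95 and 1.79). In unstimulated siPDL1-1 cells it lay below (3.31 and 3.07 against 3.44 and 3.38). In siPDL1-1 cells with IFNγ, *IL22RA1* (3.20 and 3.41 CPM per kb) lay above *IL6R* (2.98 and 2.42). Within a library these ratios compare transcripts, and the surface protein was not measured. In bulk RNA, a change in all cells cannot be told apart from a change in some of them.

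**Figure D1:**
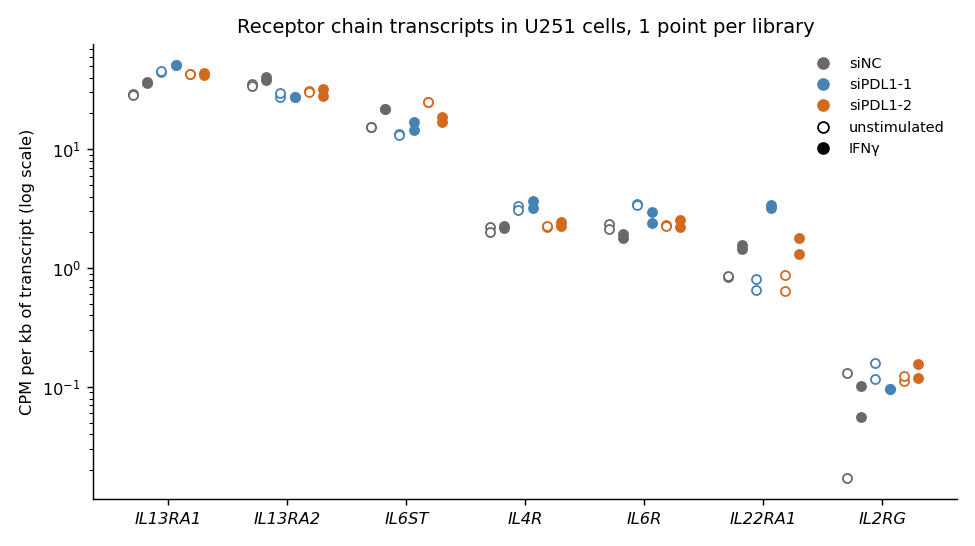
Level of each receptor chain in CPM per kb of canonical transcript (log axis) in each of the 12 libraries, coloured by siRNA, with open points for unstimulated and filled points for IFNγ-treated cells. IL13RA1, IL13RA2 and IL6ST lie above the other 4 chains in every library, and IL2RG lies lowest.

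Differences between groups were tested with limma on log2(CPM + 1) over 17982 genes that passed a filter on low counts. A gene was called at a false discovery rate (FDR) below 0.01 together with a fold change above 1.5 on that scale, and "rose" or "fell" is used here for called genes. Fold changes understate the change of the low genes because 1 was added to the CPM. 6 of the 7 members passed the filter, the exception being *IL2RG*. The knockdown comparisons share the siNC libraries and are not independent of each other.

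*IL13RA2* (ENSG00000123496, minus strand of GRCh38, chrX:115003975-115019977) was lower in every knockdown library than in every siNC library, but no comparison reached a fold change of 1.5. In unstimulated cells it was at 47.5 and 45.8 CPM with siNC, 37.0 and 39.5 with siPDL1-1, and 41.7 and 40.7 with siPDL1-2. With IFNγ it was at 51.3 and 54.1 CPM with siNC, 36.9 and 37.0 with siPDL1-1, and 43.0 and 37.7 with siPDL1-2. The lowest siNC library (45.8 CPM) stood above the highest knockdown library (43.0 CPM), a separation in this direction that 5.43% of all tested genes showed between these 8 and 4 libraries. Under IFNγ the log2 fold change against siNC was -0.50 (SE 0.0645, FDR = 2.68e-05) for siPDL1-1 and -0.38 (SE 0.0645, FDR = 4.78e-04) for siPDL1-2. Unstimulated, it was -0.28 (FDR = 0.00406) for siPDL1-1 and -0.18 (FDR = 0.0410) for siPDL1-2, and the latter missed the FDR limit. The FDR of the unstimulated siPDL1-1 value ranged from 1.15e-04 to 0.0667 over the alternatives run. The difference between both siRNAs was -0.12 (95% confidence interval -0.26 to 0.02) under IFNγ and -0.105 (-0.24 to 0.03) without it, and neither passed the FDR limit.

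With IFNγ, *IL13RA2* itself passed neither limit in any siRNA group. Its log2 fold change was 0.17 (FDR = 0.0466) in siNC cells, -0.047 in siPDL1-1 cells and -0.032 in siPDL1-2 cells, and none was called. The 95% confidence intervals reach from -0.18 to 0.31 over the 3 siRNA groups, so a change as large as the 1.5-fold limit lies outside each of them.

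*IL13RA1* (ENSG00000131724, plus strand, chrX:118727133-118794535), the signalling IL13 chain, moved the other way. It was at 116 and 114 CPM in unstimulated siNC cells, 179.5 and 183 with siPDL1-1, and 171 and 172 with siPDL1-2. With IFNγ it was at 144 and 148 CPM with siNC, 205 and 203 with siPDL1-1, and 174 and 167 with siPDL1-2. Every knockdown library was thus above every siNC library, as for 4.97% of all tested genes in this direction, and the 4 siPDL1-1 libraries were above all 8 others. Unstimulated, *IL13RA1* rose with siPDL1-1 (log2 fold change 0.65, SE 0.0395, FDR = 2.39e-08), where 4% of all tested genes were called in either direction. With siPDL1-2 the value was 0.57 (FDR = 6.93e-08), a 1.49-fold difference just under the limit. Under IFNγ the values were 0.48 (FDR = 2.58e-07) and 0.22 (FDR = 7.01e-04).

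The response of *IL13RA1* to IFNγ was smaller in siPDL1-2 cells than in siNC cells. In siNC cells the log2 fold change with IFNγ was 0.34 (FDR = 6.49e-06), in siPDL1-1 cells 0.17 (FDR = 0.00358) and in siPDL1-2 cells -0.0084 (FDR = 0.901). The test of the difference between siPDL1-2 and siNC cells gave -0.35 (SE 0.0558, FDR = 3.92e-04), and that between siPDL1-1 and siNC cells gave -0.17 (FDR = 0.130), neither past the fold limit.

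The ratio of the 2 IL13 chains differed between groups accordingly. Per kb, *IL13RA1* was at 0.825 ± 0.0113 times *IL13RA2* in unstimulated siNC cells and 0.928 ± 0.0185 times with IFNγ (mean ± SD, n = 2). The ratio was 1.59 ± 0.0532 and 1.85 ± 0.0167 with siPDL1-1, and 1.39 ± 0.0256 and 1.42 ± 0.0886 with siPDL1-2. With these canonical lengths, *IL13RA2* was thus the more abundant transcript per kb only in the siNC groups. That order depends on the lengths used (1.338 kb for *IL13RA2* and 3.996 kb for *IL13RA1*), whereas the relative differences in ratio between groups do not. Over the 12 libraries the log2 levels of the pair had a Pearson r of -0.72, given as a description since the libraries fall into 6 groups. Such a value was not particular to this pair. It was -0.78 for *IL13RA2* with *IL6R* and -0.72 for *IL6ST* with *IL6R*, while other pairs were positive, such as *IL13RA1* with *IL4R* (0.76).

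*IL4R* (ENSG00000077238, plus strand, chr16:27313668-27364778), the chain shared by the IL4 and IL13 receptors, was higher in the siPDL1-1 libraries. The 4 siPDL1-1 libraries were at 12.0 and 11.1 CPM unstimulated and at 13.3 and 11.6 with IFNγ. The 4 siNC libraries lay between 7.34 and 8.26 CPM, and the 4 siPDL1-2 libraries between 8.03 and 8.91 CPM. Both *IL4R* and *IL13RA1* had the 4 siPDL1-1 libraries above the 8 others, which 3.04% of all tested genes did. Against siNC the log2 fold change with siPDL1-1 was 0.57 (FDR = 2.20e-04) under IFNγ and 0.53 (FDR = 4.83e-04) without it, folds of 1.48 and 1.45 that missed the limit. With IFNγ the gene passed it by DESeq2 (0.65), by edgeR (0.64) and with a pseudocount of 0.1 (0.62). With siPDL1-2 the values were 0.069 under IFNγ and 0.072 without it (95% confidence interval of each -0.13 to 0.27). The direct difference between the siRNAs was 0.50 (FDR = 0.00151) under IFNγ and 0.46 (FDR = 0.00129) without it. For IFNγ the log2 fold change of *IL4R* was between 0.061 and 0.097 in the 3 siRNA groups (FDR from 0.461 to 0.665).

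*IL2RG* (ENSG00000147168, minus strand, chrX:71107404-71112108) had 1 to 10 reads per library and 64 reads in all, with levels from 0.0253 to 0.235 CPM. The lowest and the highest library were both unstimulated, and at this depth no difference between groups was detectable.

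**Figure D2:**
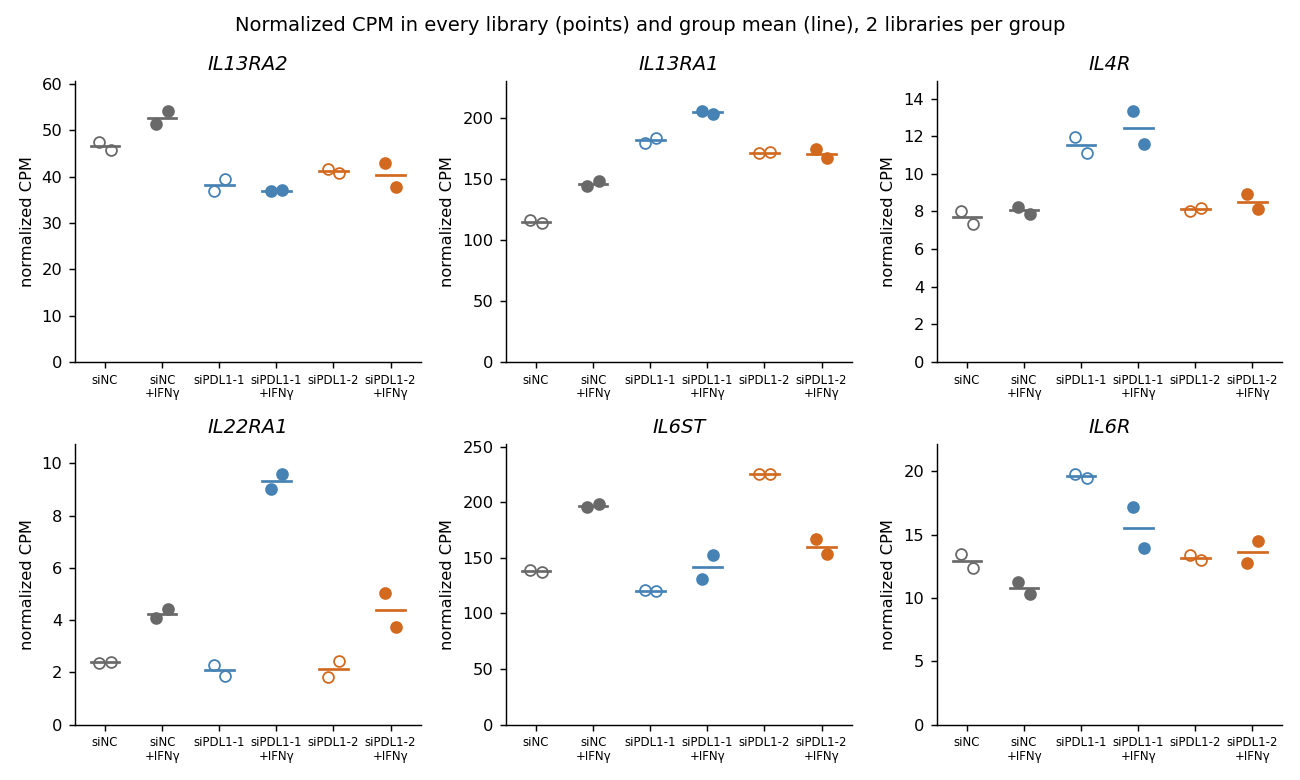
Normalized CPM of the 6 tested receptor genes in each of the 12 libraries (points; open for unstimulated, filled for IFNγ), with the mean of each group of 2 as a line and every axis starting at 0. IL13RA2 is lower and IL13RA1 higher in all 8 knockdown libraries than in the 4 siNC libraries, and IL22RA1 reaches 9.02 and 9.60 CPM in siPDL1-1 cells with IFNγ.

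*IL22RA1* (ENSG00000142677, minus strand, chr1:24119771-24143140) was the one member called for IFNγ in all 3 siRNA groups. Unstimulated, it was at 2.35 and 2.40 CPM with siNC, 2.29 and 1.86 with siPDL1-1, and 1.82 and 2.44 with siPDL1-2. With IFNγ it was at 4.06 and 4.42 CPM with siNC, 9.02 and 9.60 with siPDL1-1, and 5.04 and 3.74 with siPDL1-2. The unstimulated libraries of all siRNAs overlapped, every IFNγ library was above them, and the siPDL1-1 libraries with IFNγ stood highest. These values rest on 48 to 318 reads per library.

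With IFNγ, *IL22RA1* rose in siNC cells (log2 fold change 0.63, SE 0.136, FDR = 0.00176), in siPDL1-1 cells (1.75, FDR = 9.10e-08) and in siPDL1-2 cells (0.78, FDR = 5.81e-04). Of the 6 members it was the only one called in these comparisons, where 8.12%, 6.87% and 5.27% of all tested genes were called in either direction. The call in siNC cells was lost, with a value of 0.57, when plain CPM was used, and when siNC library 1 or 2 without IFNγ (0.62 and 0.65) or siNC library 2 with IFNγ (0.58) was left out. The call in siPDL1-2 cells was lost without library 1 of either condition (0.64 and 0.60).

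Under IFNγ, *IL22RA1* was higher with siPDL1-1 than with siNC (0.98, SE 0.136, FDR = 5.30e-05) and than with siPDL1-2 (0.95, FDR = 1.72e-04), both past the fold limit. It was the only member called in either comparison, against 5.47% and 2.23% of all tested genes. With siPDL1-2 against siNC the value was 0.030 (95% confidence interval -0.26 to 0.32), in a comparison that called 3.13% of all tested genes and none of the members. Unstimulated, the knockdown values were -0.14 and -0.12 (FDR = 0.497 and 0.535). The response to IFNγ was larger by 1.11 (SE 0.192, FDR = 0.00325) in siPDL1-1 than in siNC cells, a test that called 0.968% of all tested genes. That call was lost without the filter on low counts (FDR = 0.0166, in a range of 0.00205 to 0.0299 over the alternatives) and without siNC library 1 or 2, siNC library 1 with IFNγ or siPDL1-1 library 2 unstimulated, with values from 1.01 to 1.13.

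The 3 genes whose pattern over the 12 libraries was most like that of *IL22RA1* among 11588 genes were *OAS3*, *SAMD9* and *IFIT5*, all interferon-stimulated genes, with Pearson r of 0.979 each. *OAS3*, a sensor of double-stranded RNA, was at 20.5 CPM in siNC cells and 88.5 with IFNγ, at 23.9 and 607 with siPDL1-1, and at 17.2 and 86.4 with siPDL1-2. The siPDL1-1 libraries with IFNγ were the highest of the 12 for *OAS3* as for *IL22RA1*, and the part that other interferon-stimulated genes had in the *IL22RA1* values was not tested.

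*IL10RB*, the partner chain of *IL22RA1*, was at 31.9 to 50.7 CPM over the 12 libraries and was called in no comparison, with a log2 fold change for IFNγ of 0.41 (FDR = 4.56e-05) in siNC cells and 0.17 (FDR = 0.0323) in siPDL1-1 cells. *IL22* itself had at most 2 reads in a library. Of the 13 other ligands and receptors of the IL10 and IL22 family, 6 were tested, and with siPDL1-1 against siNC under IFNγ 2 of them rose and none fell (5.47% of all tested genes were called), with a median log2 fold change of 0.28 against -0.0049 over all tested genes. The 2 were *IL20RB* (0.78, FDR = 4.38e-05), a chain of the IL20 and IL24 receptors, and *IFNL1*, an interferon lambda (1.41, FDR = 5.44e-08). *IFNL1* was named here after its values were seen, because its mean lay under 1 CPM. It was at 1.67 and 1.69 CPM in siPDL1-1 cells with IFNγ and had at most 1 read in each of the 10 other libraries. Only that siPDL1-1 group let *IFNL1* through the filter on low counts. Its place among the 6, its call and its part in the median therefore say nothing about the list as a whole. The summed level of the 7 epithelial markers was 91.7 to 94.7 CPM in siPDL1-1 cells with IFNγ and 96.0 to 96.1 in siNC cells with IFNγ, and *EPCAM* and *CDH1* stayed at or below 0.120 and 0.0749 CPM. The summed leukocyte list was 80.1 to 84.4 CPM in siPDL1-1 cells with IFNγ and 45.5 to 46.0 in siNC cells with IFNγ. *CD68*, a lysosomal protein, made up most of it.

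The start regions of *IL22RA1* and *IL6ST* are shown because these 2 genes were the members whose response to IFNγ differed between siRNA groups past both limits. RefSeq promoter windows (GRCh38.p14) were found for 6 of the 7 members. The 250 bases before the RefSeq start are given 5′ to 3′ on the strand of the gene, with each CpG in capitals, for *IL22RA1* at chr1:24143141-24143390 (minus strand) and *IL6ST* at chr5:55994964-55995213 (minus strand). The RefSeq start of *IL6ST* lies inside the gene span given for it below, so the 3′ end of its stretch is within that span.
IL22RA1: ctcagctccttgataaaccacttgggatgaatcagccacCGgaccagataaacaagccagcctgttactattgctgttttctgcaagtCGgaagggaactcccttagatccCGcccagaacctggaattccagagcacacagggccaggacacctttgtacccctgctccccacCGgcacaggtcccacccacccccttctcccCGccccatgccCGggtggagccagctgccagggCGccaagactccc
IL6ST: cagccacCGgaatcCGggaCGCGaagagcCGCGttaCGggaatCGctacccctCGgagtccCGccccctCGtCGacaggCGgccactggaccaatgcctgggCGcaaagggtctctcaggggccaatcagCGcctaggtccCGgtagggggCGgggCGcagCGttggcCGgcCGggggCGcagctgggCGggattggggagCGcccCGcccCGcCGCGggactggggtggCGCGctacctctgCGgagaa
The *IL22RA1* stretch held 7 CpG and 60% G and C, and the *IL6ST* stretch held 31 CpG and 73.6%, against a median of 11 CpG over 35116 stretches of this length. In windows of 300 bases around the start, none of the 6 members held the gamma-activated site TTCNNNGAA, which 7.66% of all windows held on either strand. The same held for the STAT6-type motif, in which 1 more base separates these letters (6.44% of windows), and for the interferon-stimulated response element (3.57% of windows). These letters were sought in these windows alone, which do not cover more distant elements.

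*IL6ST* (ENSG00000134352, minus strand, chr5:55935095-55995022), the gp130 chain, responded to IFNγ in opposite directions in siNC and siPDL1-2 cells. In siNC cells it was at 139 and 138 CPM unstimulated and 196 and 198 with IFNγ. In siPDL1-1 cells it was at 121 and 119.8 CPM unstimulated and 131 and 153 with IFNγ. In siPDL1-2 cells it was at 226 in both unstimulated libraries and 167 and 153 with IFNγ. The siPDL1-2 libraries were thus the highest of all without IFNγ and below the siNC libraries with it.

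The log2 fold change of *IL6ST* with IFNγ was 0.51 (SE 0.0587, FDR = 6.98e-06) in siNC cells, 0.23 (FDR = 0.00637) in siPDL1-1 cells and -0.49 (FDR = 1.54e-05) in siPDL1-2 cells, each under the fold limit. The difference between siPDL1-2 and siNC cells in this response was -1.004 (SE 0.083, FDR = 1.69e-05) and passed both limits, as for 7.62% of all tested genes. In unstimulated cells *IL6ST* rose with siPDL1-2 (0.70, FDR = 5.16e-07), the only member among the 6.17% of genes called there. It was lower with siPDL1-1 than with siPDL1-2 (-0.90, FDR = 1.21e-07), where 4.35% of all tested genes were called. Under IFNγ it was lower than in siNC cells with siPDL1-1 (-0.47, FDR = 1.81e-05) and with siPDL1-2 (-0.30, FDR = 0.00139). A further comparison, chosen after the values were seen, set the IFNγ responses of both knockdowns against each other. *IL6ST* (0.73, FDR = 3.78e-05) and *IL22RA1* (0.97, FDR = 0.00259) were both called as more positive in siPDL1-1 than in siPDL1-2 cells, 2 of the 6 members against 4.87% of all tested genes. The *IL22RA1* call was lost without siPDL1-1 library 2 unstimulated, siPDL1-2 library 2 unstimulated or siPDL1-2 library 2 with IFNγ (0.87, 0.83 and 0.79; FDR = 0.0177, 0.0199 and 0.0165). In place of 876 genes, 545 were called without the last of these, 560 without siPDL1-2 library 2 unstimulated, 572 without siPDL1-1 library 1 unstimulated and 1396 without siPDL1-1 library 1 with IFNγ.

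*IL6R* (ENSG00000160712, plus strand, chr1:154405193-154469450), the chain that binds IL6, followed neither pattern. It was at 13.5 and 12.3 CPM in unstimulated siNC cells and 11.3 and 10.3 with IFNγ. With siPDL1-1 it was at 19.8 and 19.5 CPM unstimulated and 17.2 and 13.9 with IFNγ, and with siPDL1-2 at 13.4 and 13.0 unstimulated and 12.8 and 14.5 with IFNγ. The unstimulated siPDL1-1 libraries were the highest of the 12. Against siNC the log2 fold change with siPDL1-1 was 0.57 (SE 0.0967, FDR = 3.94e-04) unstimulated and 0.48 (FDR = 0.00115) with IFNγ, under the fold limit. Unstimulated it passed that limit by DESeq2 (0.59) and with a pseudocount of 0.1 (0.60). With siPDL1-2 it was 0.031 (95% confidence interval -0.18 to 0.24) unstimulated and 0.31 (FDR = 0.0229) with IFNγ. For IFNγ the values were -0.24 (FDR = 0.0643) in siNC cells, -0.33 (FDR = 0.0169) in siPDL1-1 cells and 0.044 (FDR = 0.779) in siPDL1-2 cells.

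The level of *IL6ST* relative to *IL6R* therefore varied between groups. Per kb, *IL6ST* was at 6.85 ± 0.373 times *IL6R* in unstimulated siNC cells and 11.7 ± 0.804 times with IFNγ (mean ± SD, n = 2). It was at 3.91 ± 0.0266 and 5.94 ± 1.497 times with siPDL1-1, and at 10.9 ± 0.230 and 7.53 ± 1.14 times with siPDL1-2. The ratio was higher with IFNγ in siNC cells and lower with IFNγ in siPDL1-2 cells.

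**Figure D3:**
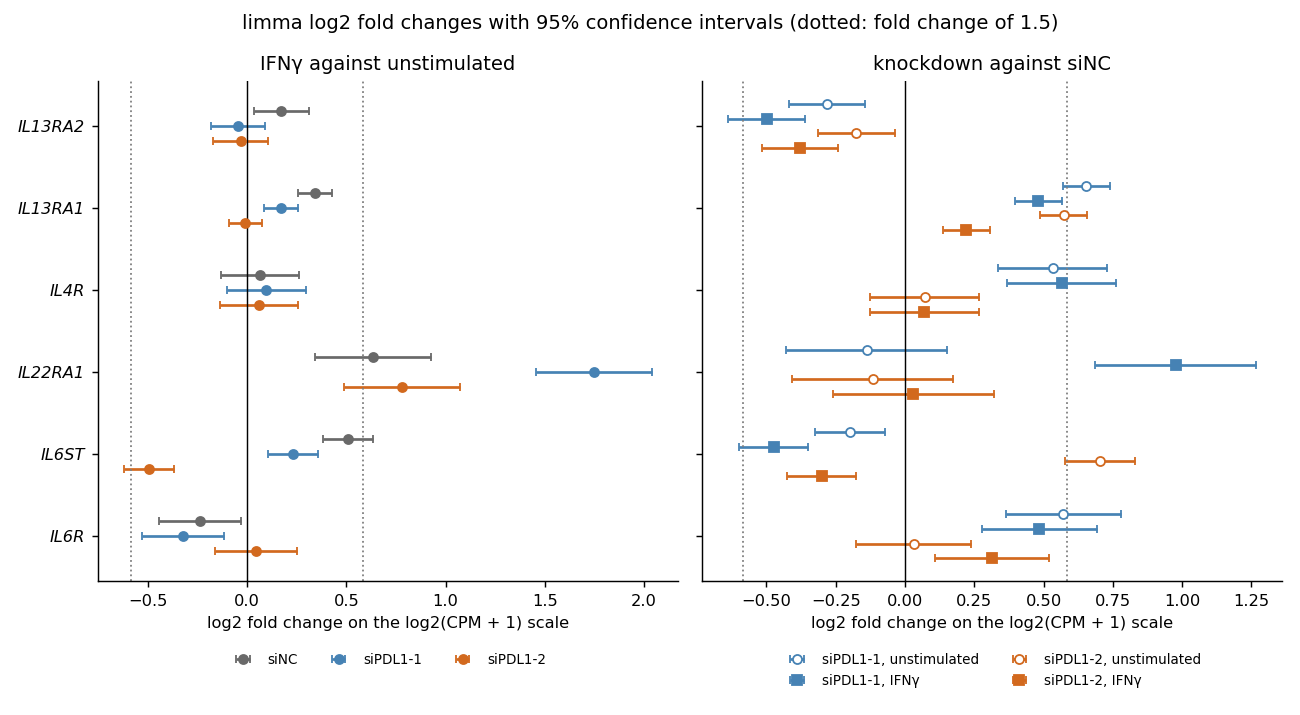
limma log2 fold changes on the log2(CPM + 1) scale with 95% confidence intervals for the 6 tested members, for IFNγ against unstimulated in each siRNA group (left) and for each knockdown against siNC with and without IFNγ (right); dotted lines mark a fold change of 1.5. IL22RA1 with IFNγ in siPDL1-1 cells (1.75) is the value farthest from 0, and IL6ST is at 0.51 in siNC and -0.49 in siPDL1-2 cells.

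Over the members as a whole, all 6 passed the FDR limit for siPDL1-1 against siNC under IFNγ, where 23.8% of all tested genes did so at any fold. 4 of them were higher and 2 lower, and the median log2 fold change was 0.48 against -0.0049 over all tested genes. For siPDL1-2 under IFNγ 3 of the 6 passed it, against 18.4% of all tested genes. For IFNγ 3 members passed it in siNC cells, 3 in siPDL1-1 cells and 2 in siPDL1-2 cells, against 27.3%, 22.9% and 17.1% of all tested genes. Unstimulated, 4 members passed it with siPDL1-1 and 2 with siPDL1-2, against 18.8% and 28.4%. These counts are of the main fit, and several of the passes did not hold over all alternatives run. Among those were *IL13RA1* and *IL6ST* for IFNγ in siPDL1-1 cells, with values from 0.099 to 0.19 and from 0.13 to 0.34. Another was *IL6R* for siPDL1-1 against siNC under IFNγ, with values from 0.34 to 0.63.

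Of 19 ligands and partners of gp130, 15 were tested. With IFNγ, 2 rose and 2 fell in siNC cells, 2 rose and none fell in siPDL1-1 cells, and 1 rose and none fell in siPDL1-2 cells, where 8.12%, 6.87% and 5.27% of all tested genes were called. *LIFR*, the gp130 partner for LIF, rose with IFNγ in siNC cells (1.37, FDR = 5.15e-10) and in siPDL1-1 cells (1.32, FDR = 7.50e-10). In unstimulated siPDL1-2 cells *LIFR* was at 48.7 and 50.4 CPM, against 25.2 and 24.0 in siNC cells, and its IFNγ response was smaller there than in siNC cells by 1.08 on the log2 scale (log2 difference -1.08, FDR = 2.40e-05), the direction found for *IL6ST*. *OSMR*, the gp130 partner for oncostatin M, rose with siPDL1-1 (0.67, FDR = 3.30e-08) and with siPDL1-2 (0.67, FDR = 2.77e-08) in unstimulated cells. It was also 1 of the 3 genes most like *IL13RA1* in pattern over the 12 libraries, with a Pearson r of 0.986, beside *MCFD2* (0.989) and *TMED8* (0.986), whereas *CNIH1* was most like *IL6ST* (0.985) and *AC091057.1* and *NLN* most like *IL13RA2* (0.962 each). *IL6*, the ligand of *IL6R*, rose with IFNγ in all 3 siRNA groups by 0.63 to 0.91 on the log2 scale, while *LIF* fell in siNC cells (-1.01, FDR = 3.89e-07) and its response was more positive in siPDL1-1 cells (by 0.97, FDR = 2.13e-04) and siPDL1-2 cells (by 0.75, FDR = 5.55e-04).

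**Figure D4:**
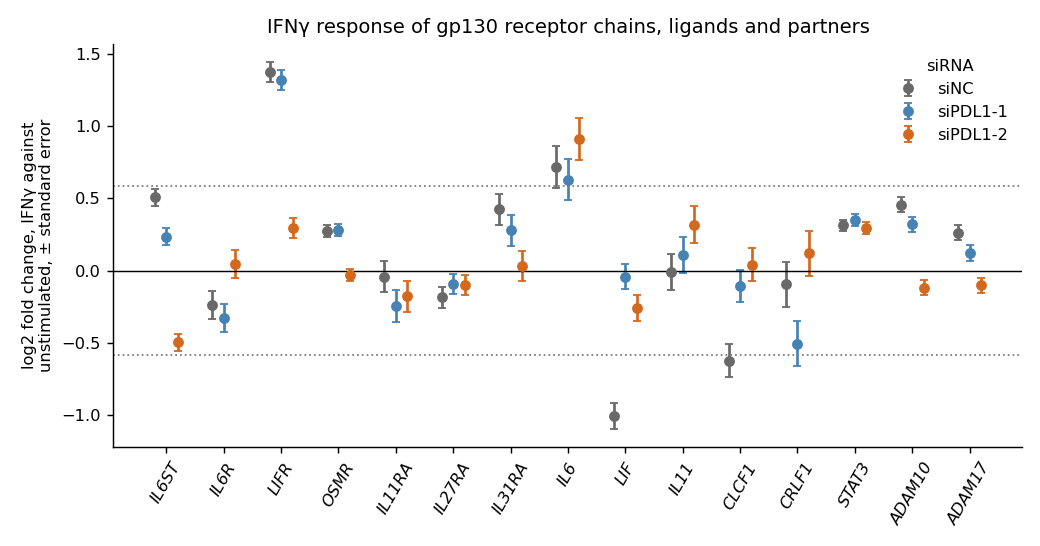
limma log2 fold change of IFNγ against unstimulated cells (± standard error) in siNC, siPDL1-1 and siPDL1-2 cells for IL6ST, IL6R and other tested chains, ligands and partners of gp130. The tested ligands EBI3 and CNTF are not drawn. Dotted lines mark a fold change of 1.5. LIFR is at 1.37 in siNC and 1.32 in siPDL1-1 cells, and IL6ST lies below 0 in siPDL1-2 cells.

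Of 13 partners of the IL4 and IL13 axis, 11 were tested, and *IL4* and *IL13* themselves had at most 1 and 5 reads in a library. With IFNγ 1 of the 11 rose in siNC cells, 2 in siPDL1-1 cells and 3 in siPDL1-2 cells, and none fell, beside the same 8.12%, 6.87% and 5.27% of all tested genes. *JAK2*, which carries signals from cytokine receptors that include the IFNγ receptor, rose in all 3 (2.03, 2.13 and 1.10, FDR at or below 1.58e-08). *STAT6*, the transcription factor of the axis, rose in siPDL1-1 cells (0.69, FDR = 6.04e-04) and siPDL1-2 cells (0.62, FDR = 0.00219) from a level under 1 CPM, and in siNC cells its value was 0.56 (FDR = 0.00251), under the fold limit. Against siNC unstimulated, 1 of the 11 rose and 2 fell with siPDL1-1, and 1 rose and 1 fell with siPDL1-2 (4% and 6.17% of all tested genes called). Under IFNγ 1 rose and 1 fell with siPDL1-1, and 1 fell with siPDL1-2 (5.47% and 3.13%). Unstimulated, *JAK2* was at 14.0 and 15.5 CPM with siNC and at 26.55 and 25.9 with siPDL1-2. With IFNγ it was at 61.3 and 65.1 CPM with siNC, 94.9 and 108 with siPDL1-1, and 58.2 and 56.4 with siPDL1-2. Unstimulated, *CHI3L1*, a ligand of *IL13RA2*, rose with siPDL1-1 (0.64, FDR = 0.00257) and *IRS2*, an adaptor of IL4 signalling, fell with siPDL1-1 (-0.69, FDR = 1.63e-04) and siPDL1-2 (-0.71, FDR = 8.90e-05).

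Of 10 feedback inhibitors of these receptors, all tested, 2 rose with IFNγ in each siRNA group, *SOCS1* and *SOCS3*. *SOCS1*, an inhibitor of JAK kinases, was at 8.18 and 7.14 CPM in siNC cells with IFNγ, 26.6 and 26.4 with siPDL1-1, and 7.86 and 8.79 with siPDL1-2. It rose with siPDL1-1 against siNC under IFNγ (1.67, FDR = 4.95e-08), the comparison in which *IL22RA1* rose. Of 16 genes known as targets of STAT6 or STAT3, 11 were tested, and 2, 3 and 6 rose with IFNγ in siNC, siPDL1-1 and siPDL1-2 cells with none falling, against 8.12%, 6.87% and 5.27% of all tested genes called. This list shares *SOCS3* and *CISH* with the feedback inhibitors, so *SOCS3* counts in both. Against siNC under IFNγ, 1 of the 11 tested STAT targets rose and 1 fell with siPDL1-1, where 5.47% of all tested genes were called. With siPDL1-2 under IFNγ none rose and 1 fell (3.13%). Unstimulated, none rose and 2 fell with each siRNA (4% and 6.17%). *MYC* fell with both knockdowns with and without IFNγ (-0.59 to -1.11), and *PIM1*, a kinase, fell with both in unstimulated cells (-0.66 and -1.03). Under IFNγ, *TGM2* was at 2.08 and 1.81 CPM with siNC and at 4.71 and 3.81 with siPDL1-1. Of 11 ligands and partners of *IL2RG*, 7 were tested. *IL15* and *IL15RA* rose with IFNγ in all 3 siRNA groups, by 1.98 to 2.58 and 2.61 to 2.95 on the log2 scale, beside *IL2RG* at no more than 10 reads.

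Among 15 other surface antigens that have been targeted in glioblastoma, 14 were tested. With siPDL1-1 against siNC under IFNγ 1 rose and none fell, and with siPDL1-2 none was called, where 5.47% and 3.13% of all tested genes were called. With siPDL1-1 under IFNγ, *IL13RA2* at -0.50 lay below each of the 14, the next being *NCAM1* at -0.25. With siPDL1-2, *IL13RA2* was at -0.38 and *CD47* at -0.40. The gene that rose was *L1CAM*, a neural adhesion molecule (0.99, FDR = 2.52e-08). Unstimulated, *IL13RA2* was not the lowest of these. *AXL* was at 246 and 228 CPM with siNC and 163 and 175 with siPDL1-1, a larger relative difference than that of *IL13RA2* (-0.28). *CD70* was at 148 and 154 CPM with siNC and 106 and 109 with siPDL1-2, where *IL13RA2* was at -0.18. Of the 14, 1 rose with siPDL1-1 and none with siPDL1-2, and none fell, beside 4% and 6.17% of all tested genes called. With IFNγ, *CD47* and *PDGFRA* rose in siNC cells (1.70 and 1.09) and *NCAM1* fell (-0.62), while *IL13RA2* was at 0.17. For IFNγ in siNC cells the median log2 fold change was 0.12 over the tested IL4 and IL13 partners, 0.51 over those of *IL2RG*, 0.045 over those of gp130, 0.087 over the feedback inhibitors, 0.11 over the STAT targets and -0.070 over the other antigens, against 0.0012 over all tested genes.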

How the data were processed

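Poly(A) RNA of the 12 U251 libraries was sequenced as read pairs. Per the study's methods, the authors trimmed and mapped reads with CLC Genomics Workbench to Ensembl GRCh38, ignored broken pairs, counted both strands and normalized the counts. The deposited values are a normalized signal, CPM rescaled by the authors with 1 factor per library (0.959 to 1.036), and dividing by the value of 1 read gave whole reads (tolerance 0.01 reads) for 100% of values. The labels and the methods differ on the extraction kit. Genes that overlap a member were below 1 CPM.

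limma 3.58.1 (trend, robust) was fitted in R 4.3.3 to log2(CPM + 1) of all 12 libraries in 6 groups, over 17982 genes kept by edgeR 4.0.16 filterByExpr (minimum count 10, minimum total 15), with Benjamini-Hochberg FDR, and genes were called at FDR below 0.01 and fold change above 1.5. Tests were two-sided. In simulated data for IFNγ in siNC cells, a log2 change of 1.5 was planted in 200 genes above 5 CPM. Of these 200 changed genes, 199 were recovered with 2 false calls, and 0 genes were called with none changed. Recovery of smaller changes, or of genes as low as *IL22RA1*, was not simulated. The members, gene lists and tests were chosen with earlier results of these data known. Named genes were the members, listed genes called at a mean of at least 1 CPM, and the 3 genes most like each member (Pearson r, mean of at least 5 CPM). Levels per kb used the canonical GENCODE transcript. Alternatives were DESeq2 1.42.0 and edgeR tests on the recovered reads, DESeq2 size factors, plain CPM, a pseudocount of 0.1, no filter, thinning to 17101069 reads, no fold threshold, a replicate block, fits of only stimulated or unstimulated libraries, and leaving out each library. The difference between both knockdowns in the IFNγ response was added after seeing the data.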

Additional observations from a re-analysis of the deposited data

Results flagged for a closer look

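4 differences in the response to IFNγ between siRNA groups stood out by a test of the difference itself (limma, FDR below 0.01 and fold change above 1.5). The response of *IL22RA1* was larger in siPDL1-1 than in siNC cells by 1.11 on the log2 scale (FDR = 0.00325), with both siPDL1-1 libraries with IFNγ above all others. This call was lost under 5 of 21 alternatives, with an FDR of up to 0.0299. It was larger in siPDL1-1 than in siPDL1-2 cells by 0.97 (FDR = 0.00259), a call lost without any 1 of 3 libraries. The response of *IL6ST* differed by -1.004 between siPDL1-2 and siNC cells (FDR = 1.69e-05), with both libraries of each group moving in opposite directions. It was more positive in siPDL1-1 than in siPDL1-2 cells by 0.73 (FDR = 3.78e-05). The 2 differences between both knockdowns were chosen after the values were seen, and all 4 share libraries.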

How the results depend on the processing

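Over 21 or 22 alternatives per comparison, 1462 of the member values kept their direction and their call under the thresholds applied. A value that crossed the FDR limit alone, while under the fold limit, is counted as kept. Of the other values, 34 came to be called, 14 were no longer called and 38 changed sign, none of these 38 from a called value. Among the 34 were unchanged values of the main fit, called only because the fold threshold was left out. All 14 lost calls were of *IL22RA1*, each named beside its results. Low read numbers of *IL22RA1* and *IL2RG*, and 2 libraries a group, limit what was detectable.

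Without the fold threshold, 3, 3 and 2 members were called for IFNγ in siNC, siPDL1-1 and siPDL1-2 cells. Against siNC with IFNγ 6 were called for siPDL1-1 and 3 for siPDL1-2, and unstimulated 4 and 2. Between both knockdowns 3 were called with and 3 without IFNγ, and 2 for the IFNγ dependence of siPDL1-2. In these comparisons 1882, 4338 and 3067 of all 17982 tested genes were called. All genes called then numbered 293 to 5107 rather than 174 to 1460 over the 12 comparisons. For siPDL1-1 with IFNγ 2 members were called by DESeq2, edgeR and the pseudocount of 0.1, and unstimulated 2 by DESeq2 and the pseudocount. Plain CPM gave 0 for IFNγ in siNC cells and 2 for siPDL1-2 unstimulated, and no filter gave 0 for the IFNγ dependence of siPDL1-1. Leaving out 1 library gave 0 to 1 members for IFNγ in siNC, in siPDL1-2 and for the dependence of siPDL1-1, 1 to 3 for siPDL1-1 with and without IFNγ, 1 to 2 between both knockdowns with IFNγ, and 1 to 2 for their responses. All genes called ranged then from 890 to 1662 for the dependence of siPDL1-2, lowest without siPDL1-2 library 2 with IFNγ, and from 545 to 1396 for the difference in response between both knockdowns (876 with all libraries), lowest without the same library. The cause was not tested.

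The sign changes were all of small values. Plain CPM gave -0.015 for *IL4R* with IFNγ in siNC, -0.014 for *IL6R* in siPDL1-2 cells and 0.021 for *IL4R* in the dependence of siPDL1-2, for which DESeq2 size factors gave 0.035, DESeq2 0.025 and edgeR 0.012. DESeq2 size factors gave -0.0024 for *IL6R* with siPDL1-2 unstimulated. Thinning gave -0.043 for *IL4R* with IFNγ in siPDL1-2 cells, -0.032 for *IL4R* and -0.016 for *IL22RA1* with siPDL1-2 and IFNγ, -0.051 for *IL6R* with siPDL1-2 unstimulated, 0.020 for *IL22RA1* between both knockdowns unstimulated and 0.057 for *IL6R* in the dependence of siPDL1-1.
Leaving out 1 library gave these ranges where the sign changed. In the dependence of siPDL1-1, *IL4R* ranged from -0.061 to 0.13 and *IL6R* from -0.23 to 0.056. In the dependence of siPDL1-2, *IL22RA1* ranged from -0.030 to 0.32 and *IL4R* from -0.062 to 0.057. For the responses of both knockdowns, *IL13RA2* ranged from -0.11 to 0.079 and *IL4R* from -0.059 to 0.13. With IFNγ, *IL13RA2* ranged from -0.094 to 0.0011 in siPDL1-1 cells, and in siPDL1-2 cells *IL13RA1* ranged from -0.040 to 0.024, *IL13RA2* from -0.13 to 0.062 and *IL6R* from -0.043 to 0.13. *IL22RA1* ranged from -0.17 to 0.12 between both knockdowns unstimulated, from -0.15 to 0.21 for siPDL1-2 with IFNγ and from -0.26 to 0.027 without it, where *IL6R* ranged from -0.027 to 0.089.
Under the alternative scalings, the median log2 fold change of all genes lay farthest from 0 with plain CPM for IFNγ in siPDL1-1 cells. It was -0.071 there, against -0.016 in the main fit. Same-numbered libraries deviated from their group means with correlations from -0.30 to 0.36, so no pairing by number was seen. With 2 libraries a group this cannot exclude that equal numbers shared an experiment. With a replicate block, the members called were the same in number in all 12 comparisons (0 for siPDL1-2 with IFNγ, 2 for the difference between both responses and 1 in each other comparison), and the genes called moved from 1460 to 1467 for IFNγ in siNC cells and from 1370 to 1326 for the dependence of siPDL1-2.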
